A study of Mus musculus with 12 samples.

Results

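The genes of insulin and insulin-like growth factor (IGF) signalling were followed in inguinal white adipose tissue (iWAT), the subcutaneous fat depot of the mouse in which beige adipocytes arise. They were the 10 genes Igf1, Igfbp3, Insr, Igf1r, Irs1, Irs2, Pik3r1, Akt2, Foxo1 and Slc2a4, chosen by symbol out of 24091 genes in the deposited tables, and all 10 were among the 15413 genes that passed the filter on low values. RNA of 12 C57BL/6 mice was sequenced, 1 library per mouse and 3 mice in each of 4 groups: BMCtr and BMKO mice at ambient temperature (22 °C) and BMCtr and BMKO mice after 2 weeks at 10 °C. BMKO mice carried Prx1-Cre and floxed Bmal1 alleles, and BMCtr littermates carried the floxed alleles without Cre, so all 4 groups had the floxed alleles. Prx1-Cre acts in subcutaneous fat progenitors and mature adipocytes and, outside fat, in limb mesenchyme, so the deletion was not limited to adipocytes. Cold acclimation took place at an age of 10 to 12 weeks by the methods, whereas the ambient iWAT mice were 6 weeks old by the study's legends. For the RNA-seq the legends name males in a heatmap of ambient mice and females in a heatmap of ambient and cold mice. The labels give no age or sex for single mice.

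Insulin and IGF1 bind related receptor tyrosine kinases, which phosphorylate adaptor proteins (Irs1, Irs2) that recruit PI 3-kinase, whose lipid product activates Akt. In fat cells Akt2 moves the glucose transporter GLUT4 (Slc2a4) to the cell surface, restrains lipolysis, and holds the transcription factor Foxo1 out of the nucleus. IGF1 in tissue is made largely under growth hormone control and is bound by IGF binding proteins, of which Igfbp3 carries most of the circulating hormone.

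Bmal1 acts with Clock on E-box (CACGTG) and E′-box (CACGTT) elements, and Foxo1 binds the elements GTAAACA and TGTTTTG, the latter a form of the insulin response element. These letters were searched on both strands in the 250 bases before each start site that RefSeq (build GRCm38.p6) gives for the members. 8 of the 10 members were matched, with 12 windows in all; Insr and Slc2a4 were not matched. The 3 windows that held a match, those of Irs1, Irs2 and Akt2, are shown because of that match and not for their expression. Capitals mark the matches. Each reads 5′ to 3′ on the strand of its gene and ends at the base before the start site: Irs1 at chr1:82291440-82291689 (minus strand), Irs2 at chr8:11008930-11009179 (minus strand) and Akt2 at chr7:27591302-27591551 (plus strand).
Irs1: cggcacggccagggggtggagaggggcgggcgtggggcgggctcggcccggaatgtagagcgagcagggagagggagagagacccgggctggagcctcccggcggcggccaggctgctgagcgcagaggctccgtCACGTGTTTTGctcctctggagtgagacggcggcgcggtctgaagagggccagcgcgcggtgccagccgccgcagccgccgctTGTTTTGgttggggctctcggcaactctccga
Irs2: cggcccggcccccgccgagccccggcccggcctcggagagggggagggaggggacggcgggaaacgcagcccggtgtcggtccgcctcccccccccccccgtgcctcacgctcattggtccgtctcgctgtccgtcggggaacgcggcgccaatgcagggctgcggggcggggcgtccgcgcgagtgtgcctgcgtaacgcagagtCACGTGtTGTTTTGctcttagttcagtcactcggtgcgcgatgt
Akt2: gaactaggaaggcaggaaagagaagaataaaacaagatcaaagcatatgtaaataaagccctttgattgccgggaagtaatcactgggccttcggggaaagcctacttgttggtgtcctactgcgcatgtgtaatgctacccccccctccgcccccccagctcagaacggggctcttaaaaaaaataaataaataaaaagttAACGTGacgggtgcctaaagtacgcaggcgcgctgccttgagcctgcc
The Irs1 window held CACGTG from 115 to 110 bases before the start, overlapping a TGTTTTG from 111 to 105, and a further TGTTTTG from 32 to 26. The Irs2 window held CACGTG from 44 to 39 bases before the start and TGTTTTG from 37 to 31. That start site lies 499 bases upstream of the Irs2 gene as the count table places it. The Akt2 window held CACGTT on the opposite strand, printed as AACGTG, from 48 to 43 bases before the start. Over all 32851 promoter windows of the RefSeq table, of 300 bases each (250 before the start and 50 from it on), CACGTG was in 7.15%, CACGTT in 4.68%, GTAAACA in 3.65% and TGTTTTG in 6.28%. A match gives the letters only, and binding was not measured here.

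Libraries held 17887795 to 21436282 counts (median 19481002.5). The adipocyte markers (Adipoq, Plin1, Cidec, Fabp4, Lep, Lipe, Pparg and Cfd) were among the abundant genes in every library and none of these 8 markers was at 0 in a group. Their summed level was 13691 to 17466 CPM (counts scaled to the normalised library size) in ambient BMCtr, 19754 to 24211 in ambient BMKO, 21408 to 26383 in cold BMCtr and 29425 to 35536 in cold BMKO. These ranges do not overlap between genotypes at either temperature or between temperatures in either genotype. Single adipocyte markers differed less clearly between genotypes. By the rule given below 1 of the 8 rose at ambient temperature (Adipoq) and 2 in the cold (Adipoq and Plin1). The log2 fold change was positive for 7 of 8 at each temperature, with medians of 0.49 and 0.52. Between temperatures 4 rose in each genotype (Plin1, Fabp4, Lep and Lipe). In bulk tissue, more cells of a type and more RNA per cell cannot be told apart. Other markers differed too: the summed level of 14 skeletal muscle markers ran from 95.7 to 5491 CPM in ambient BMCtr, 122 to 2638 in ambient BMKO, 225 to 6816 in cold BMCtr and 3774 to 10553 in cold BMKO, overlapping except between temperatures in BMKO, and that of 12 lymphocyte markers was 713 to 1146 CPM in cold BMCtr against 16.1 to 48.1 in cold BMKO. Of 10 progenitor markers it was 4945 to 5502 CPM in cold BMCtr against 9736 to 10693 in cold BMKO. Single progenitor markers differed less in the cold: their median log2 fold change was 0.30, and 3 rose by the rule given below (Cd34, Col1a1 and Col3a1). At ambient temperature the sums overlapped, with 7675 to 12653 CPM in BMCtr and 10739 to 15911 in BMKO. The 6 brown fat markers summed to 45.5 to 79.8 CPM in ambient BMCtr and 110 to 204 in ambient BMKO, without overlap. In the cold they summed to 142 to 453 CPM in BMCtr and 191 to 2447 in BMKO, which overlapped. The 12 mammary epithelium markers summed to 976 to 1987 CPM in the 6 ambient libraries and to 5.49 to 14.4 in the 6 cold ones. Xist, made from an inactive X chromosome, was read at 1313 to 1519 CPM in the ambient libraries and 0.526 to 2.99 in the cold ones, while the Y-linked Ddx3y was at 0 to 4.53 and 97.3 to 128 CPM. By these genes the ambient libraries read as female and the cold ones as male, which matches neither legend in full. Temperature, sex and the age given above therefore cannot be told apart in the comparisons of cold with ambient libraries.

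Arntl, the gene of Bmal1, was read at 10.7, 7.58 and 3.77 CPM in the ambient libraries labelled BMCtr and at 13.5, 16.9 and 18.2 CPM in those labelled BMKO. The cold values were 8.25, 7.93 and 6.14 CPM with the label BMCtr and 18.9, 17.6 and 19.6 CPM with the label BMKO, so counts over the whole gene were higher in the libraries labelled BMKO at both temperatures. Whole-gene counts include exons outside the floxed part and check none of the labels. Directions between genotypes therefore rest on the labels, and BMKO stands for the libraries labelled BMKO throughout. Nr1d1 (Rev-erbα), which Bmal1 induces, was lower in BMKO by edgeR's quasi-likelihood test, with log2 fold changes of −0.90 at ambient temperature (Benjamini-Hochberg adjusted p = 0.00424) and −1.58 in the cold (adjusted p = 6.94e-05).

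A gene is said to have risen or fallen where its fold change exceeded 1.5 with p under 0.05 before and under 0.25 after Benjamini-Hochberg adjustment in edgeR's quasi-likelihood test over all tested genes. Changes with cold, or effects of cold or temperature, stand for cold against ambient libraries, which also differ in sex genes and stated age. By this rule 0 of the 10 members differed between genotypes at ambient temperature, where 8.63% of all tested genes did. Without ambient BMKO replicate 2, which had the highest summed macrophage markers (3526 CPM) and the 4.53 CPM of Ddx3y, 3 members passed there: Insr (0.61), Akt2 (0.63) and Igfbp3 (0.74). Without ambient BMCtr replicate 2 it was 1 (Akt2, 0.66). The 8.63% belongs to the fit with all libraries. The shares of all genes in these refits are not given here, so the refit counts cannot be set against them. In the cold 1 member differed between genotypes, against 22.8% of all genes. Between cold and ambient libraries 1 member passed in BMCtr (14.8% of all genes) and 2 in BMKO (18.8%). Most differences of these genes were under 1.5-fold, and the shares that passed were at or below those of all genes except for the 2 in BMKO, a share near the background. With an adjusted p under 0.05 and no minimum fold, 2 members passed between genotypes at ambient temperature (4.07% of all genes) and 4 in the cold (34.7%). The same threshold gave 4 between temperatures in BMCtr (14.7%), 4 in BMKO (24.4%) and 0 for the difference between the genotype effects (0.156%). The libraries of both groups did not overlap for 4 and 7 members between genotypes in ambient and cold libraries, against 21.1% and 56.5% of all genes, and for 7 and 6 members between temperatures in BMCtr and BMKO, against 32.1% and 44%. The median log2 fold change of the 10 members was 0.32 and 0.35 between genotypes in ambient and in cold libraries, against −0.01 and 0.05 over all tested genes. It was 0.24 and 0.31 between temperatures in BMCtr and BMKO, against 0.00 and −0.02. The genotype comparisons share libraries with the temperature comparisons.

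**Figure D1:**
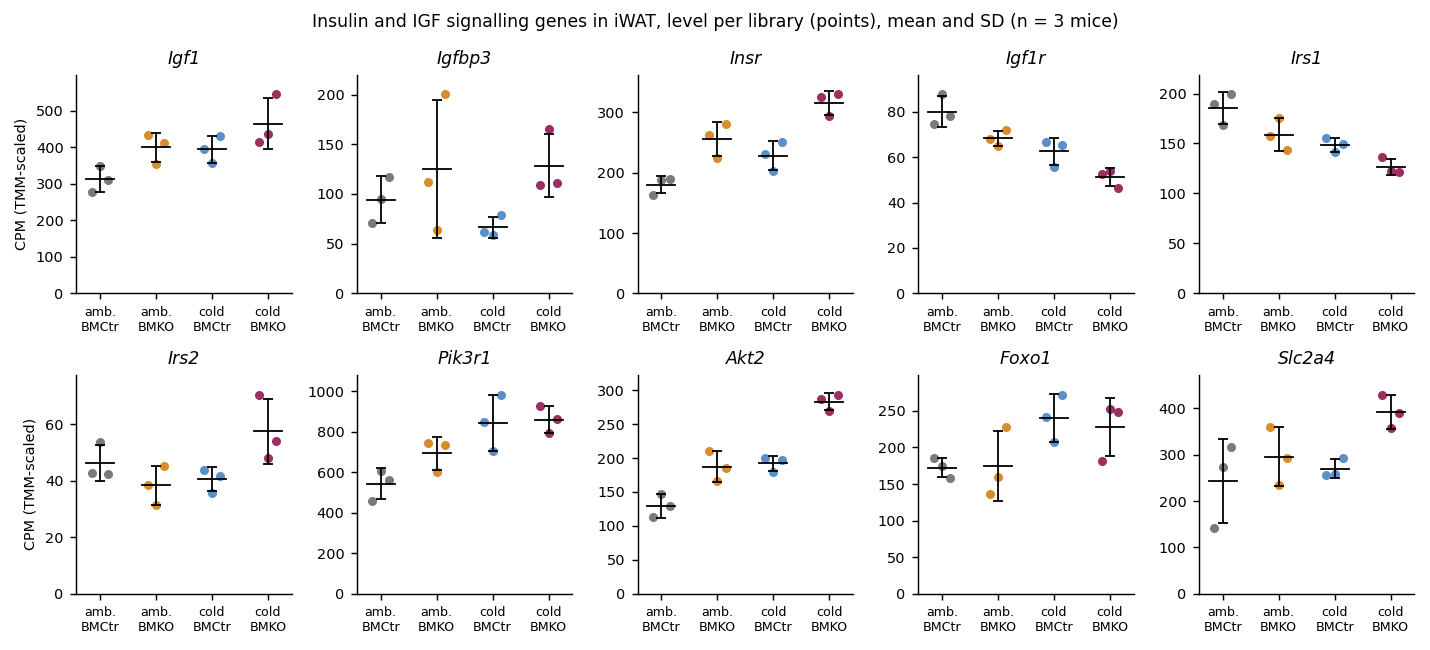
Level of each member in CPM (y axis, starting at 0) by group (x axis), with 1 point per library and the mean and SD of 3 mice as black bars. Insr and Akt2 were highest in cold BMKO, where Akt2 lay between 269 and 293 CPM, and Igf1r and Irs1 were lowest there, with Igf1r between 46.6 and 54.1 CPM.

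Per length of transcript, in the deposited FPKM values (read counts divided by transcript length and library total), Slc2a4 and Pik3r1 had the highest means of the members in all 4 groups, although libraries of Pik3r1 overlapped those of Akt2 in cold BMKO. In ambient BMCtr the mean ± SD (n = 3) was 55.8 ± 19.3 FPKM for Slc2a4 and 41.4 ± 5.14 for Pik3r1, whose libraries overlapped. Akt2 (27.8 ± 3.45 FPKM), Igfbp3 (27.4 ± 6.06) and Igf1 (27.0 ± 2.83) came next and overlapped one another, followed by Foxo1 at 22.2 ± 2.45 FPKM. Irs1 (14.4 ± 1.17 FPKM) and Insr (13.2 ± 0.710) overlapped, and both lay above Irs2 at 8.20 ± 1.15 and Igf1r at 4.44 ± 0.365. Igf1r was the least abundant member in every group, down to 2.47 ± 0.183 FPKM in cold BMKO. The order of the receptor adaptors was not the same in all groups: mean Irs2 FPKM was below that of Irs1 in 3 groups, and in cold BMKO the values of 8.85 ± 1.40 for Irs2 and 8.56 ± 0.194 for Irs1 overlapped.

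The ligand Igf1 (chromosome 10, from 87858265 to 87937047 in mm10) was read at 278, 348 and 311 CPM in ambient BMCtr and at 433, 355 and 411 CPM in ambient BMKO. Cold libraries gave 395, 356 and 431 CPM in BMCtr and 414, 435 and 544 CPM in BMKO. Ambient BMCtr was the low group, below every library of the other 3 groups, and the 2 cold groups overlapped. Its log2 fold change between genotypes was 0.36 (standard error, SE, 0.13, adjusted p = 0.166) at ambient temperature and 0.24 (SE 0.13, adjusted p = 0.186) in the cold, both under 1.5-fold.

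Igfbp3, the main carrier of IGFs in blood (chromosome 11, from 7206091 to 7213923), had its widest spread in ambient BMKO (125 ± 69.3 CPM, SD, n = 3). It was read at 70.3, 95.3 and 118 CPM in ambient BMCtr and at 112, 63.3 and 200 CPM in ambient BMKO, and these groups overlapped throughout. After cold the values were 62.0, 59.0 and 78.7 CPM in BMCtr and 109, 165 and 111 CPM in BMKO, with every BMKO library above every BMCtr library. Igfbp3 was the 1 member that rose with genotype in the cold, with a log2 fold change of 0.95 (SE 0.36, adjusted p = 0.0648). This call was lost without cold BMCtr replicate 1 (0.87, adjusted p = 0.179), cold BMCtr replicate 2 (0.84, adjusted p = 0.199) or cold BMKO replicate 2 (0.72, adjusted p = 0.19), and with library size as the only scaling or by limma (0.74 each). Stromal cells also make Igfbp3, and the summed progenitor and lymphocyte markers had the ranges without overlap given above in these same 6 libraries. With the lymphocyte markers as a covariate the difference was 0.99 (adjusted p = 0.407) and with the adipocyte markers 0.33 (adjusted p = 0.661), neither of which passed; the part of the progenitors was not tested.

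The log2 fold changes of the 2 receptors had opposite signs in all 4 comparisons. Insr, the insulin receptor (chromosome 8, from 3150922 to 3279617), was read at 164, 187 and 189 CPM in ambient BMCtr and at 263, 224 and 280 CPM in ambient BMKO. Its cold values were 231, 203 and 251 CPM in BMCtr and 324.7, 293 and 330 CPM in BMKO. The groups overlapped in neither genotype comparison, with log2 fold changes of 0.51 (SE 0.11, adjusted p = 0.0316) and 0.47 (SE 0.11, adjusted p = 0.0117), both below the 1.5-fold minimum. Cold against ambient the log2 fold change of Insr was 0.34 in BMCtr (adjusted p = 0.0636) and 0.30 in BMKO (adjusted p = 0.0678).

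Igf1r, the IGF1 receptor (chromosome 7, from 67952257 to 68233667), was read at 74.5, 87.6 and 77.9 CPM in ambient BMCtr and at 67.9, 65.0 and 71.8 CPM in ambient BMKO. In cold libraries it stood at 66.7, 55.7 and 65.4 CPM in BMCtr and at 52.7, 54.1 and 46.6 CPM in BMKO. Every BMKO library lay below every BMCtr library at the same temperature, with log2 fold changes of −0.23 (adjusted p = 0.198) and −0.29 (adjusted p = 0.0365). Cold against ambient it was −0.35 (SE 0.09, adjusted p = 0.0289) in BMCtr and −0.42 (SE 0.09, adjusted p = 0.0105) in BMKO, again with no overlap and under 1.5-fold.

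**Figure D2:**
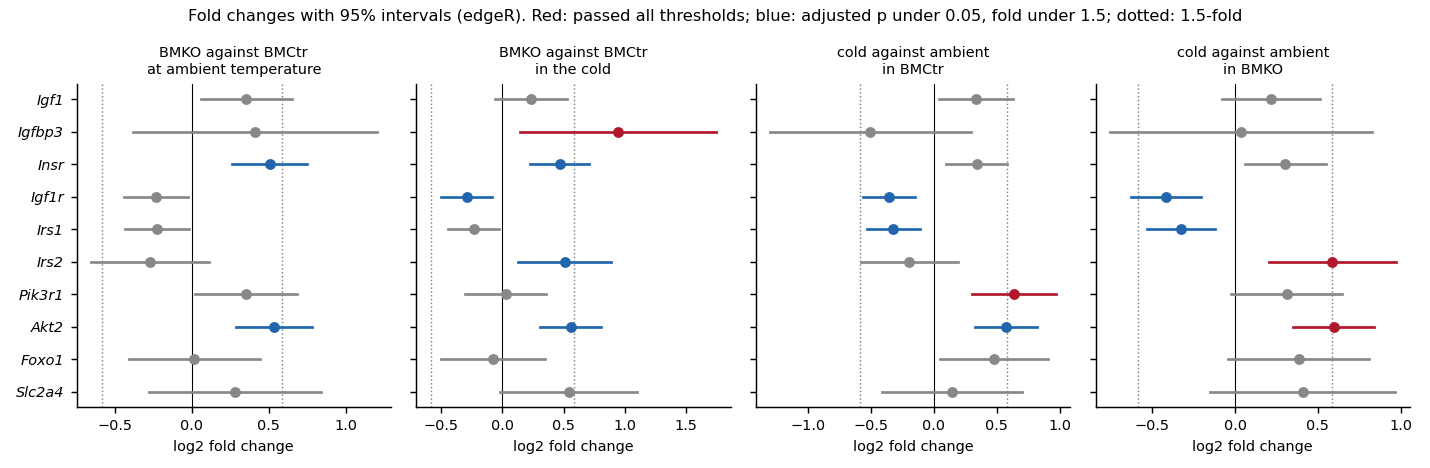
Log2 fold change (x axis) of each member (rows) in the 4 comparisons, with 95% intervals from edgeR, the 1.5-fold limits as dotted lines, genes that passed all thresholds in red and genes with an adjusted p under 0.05 but a smaller fold in blue. Insr and Akt2 lie right of 0 and Igf1r and Irs1 left of 0 in all 4 panels.

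Irs1 (chromosome 1, from 82233105 to 82291439), the adaptor that couples the insulin receptor to PI 3-kinase in fat cells, was read at 190, 168 and 199 CPM in ambient BMCtr and at 157, 176 and 144 CPM in ambient BMKO. Cold libraries gave 156, 141 and 149 CPM in BMCtr and 136, 123 and 121 CPM in BMKO. Cold BMKO was the lowest group, without overlap with cold BMCtr or ambient BMKO. The log2 fold change between genotypes was −0.22 (adjusted p = 0.204) at ambient temperature and −0.23 (adjusted p = 0.0782) in the cold. Between temperatures it was −0.32 (adjusted p = 0.0442) in BMCtr and −0.33 (adjusted p = 0.0288) in BMKO.

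Irs2 (chromosome 8, from 10986964 to 11008430), a related adaptor with a leading role in liver, was the member whose genotype difference varied most with temperature. It was read at 42.9, 53.6 and 42.4 CPM in ambient BMCtr and at 38.5, 31.3 and 45.3 CPM in ambient BMKO, which overlapped (log2 fold change −0.27, adjusted p = 0.375). After cold the values were 44.0, 35.7 and 41.8 CPM in BMCtr and 70.5, 48.2 and 54.0 CPM in BMKO, with no overlap (0.51, SE 0.17, adjusted p = 0.0436). Irs2 rose with cold in BMKO, by a log2 fold change of 0.59 (SE 0.17, adjusted p = 0.0327), just past the 1.5-fold limit of 0.58, and stood at −0.19 (adjusted p = 0.545) in BMCtr. The difference between the genotype effects was 0.78 (SE 0.24, unadjusted p = 0.00926), which did not pass over all genes (adjusted p = 0.504 by edgeR). It passed by DESeq2 (0.77, adjusted p = 0.229), without ambient BMCtr replicate 1 (0.82, adjusted p = 0.173) and with the adipocyte markers as a covariate (0.81, adjusted p = 0.225). No other member had an unadjusted p under 0.05 for this difference, and 0.766% of all tested genes passed it. The rise of Irs2 in BMKO was under 1.5-fold without ambient BMKO replicate 2 (0.43), cold BMKO replicate 1 (0.41) and each of 5 libraries outside the comparison in turn (0.57 each). It also missed the limit with library size alone (0.43), no filter (0.57), only the 2 compared groups (0.56), limma (0.46), the replicate block (0.58) and the adipocyte markers as a covariate (0.37, adjusted p = 0.467). An antisense transcript overlapping Irs2, 9530052E02Rik, had at most 17 counts in a library, against at least 614 for Irs2.

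Pik3r1 (chromosome 13, from 101680761 to 101768217) encodes the regulatory subunits of PI 3-kinase that dock on Irs proteins. It was read at 459, 609 and 563 CPM in ambient BMCtr and at 847, 704 and 984 CPM in cold BMCtr, with every cold library above every ambient one. It rose with cold in BMCtr, with a log2 fold change of 0.64 (SE 0.15, adjusted p = 0.0169). In BMKO it was at 745, 602 and 737 CPM in ambient and at 928, 793 and 862 CPM in cold libraries, for a log2 fold change of 0.31 (SE 0.15, adjusted p = 0.159). The difference between those values was −0.33 (SE 0.21, adjusted p = 0.654), so the change between temperatures was not shown to differ between genotypes. The rise in BMCtr was under 1.5-fold without ambient BMCtr replicate 1 (0.52) or cold BMCtr replicate 3 (0.51), with library size as the only scaling (0.58) and with the adipocyte markers as a covariate (0.13, adjusted p = 0.686). Between genotypes it was 0.35 (adjusted p = 0.213) at ambient temperature and 0.03 (adjusted p = 0.904) in the cold.

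Akt2 (chromosome 7, from 27591560 to 27639453), the Akt kinase needed for insulin-driven glucose uptake in fat and muscle, was read at 112, 147 and 129 CPM in ambient BMCtr and at 211, 167 and 185 CPM in ambient BMKO. Its cold values were 200, 179 and 197 CPM in BMCtr and 287, 269 and 293 CPM in BMKO. Ambient BMCtr was below and cold BMKO above every other library, and the remaining 2 groups overlapped. Between genotypes the log2 fold change was 0.54 (SE 0.11, adjusted p = 0.0274) at ambient temperature and 0.56 (SE 0.11, adjusted p = 0.00653) in the cold. Between temperatures it was 0.57 (SE 0.11, adjusted p = 0.00604) in BMCtr and 0.59 (SE 0.11, adjusted p = 0.00398) in BMKO. All 4 values lay close to the 1.5-fold limit of 0.58, and by the full rule Akt2 rose only with cold in BMKO. The difference between the genotype effects was 0.02 (95% interval −0.33 to 0.37). Which of the 4 passed depended on the setting: the temperature effect in BMCtr passed by DESeq2 (0.60), and the ambient genotype effect without ambient BMKO replicate 2 (0.63), whereas the temperature effect in BMKO was under 1.5-fold without that library (0.49). Leaving out any 1 of 9 of the 12 libraries took it below the limit, with values of 0.49 to 0.58. So did library size alone (0.44), no filter (0.58), only the 2 compared groups (0.57), limma (0.48) and the muscle (0.54), lymphocyte (0.57) and adipocyte (0.23, adjusted p = 0.273) markers as covariates.

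Foxo1 (chromosome 3, from 52268337 to 52350109), the transcription factor that Akt inactivates, was read at 185, 174 and 158 CPM in ambient BMCtr and at 136, 159 and 228 CPM in ambient BMKO. In cold libraries it stood at 242, 207 and 272 CPM in BMCtr and at 182, 253 and 249 CPM in BMKO. The genotypes overlapped at both temperatures, with log2 fold changes of 0.02 (95% interval −0.41 to 0.44) and −0.08 (95% interval −0.50 to 0.35). Cold against ambient it was 0.48 in BMCtr (adjusted p = 0.135), with no overlap, and 0.39 in BMKO (adjusted p = 0.171).

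Slc2a4 (GLUT4), the insulin-responsive glucose transporter (chromosome 11, from 69942286 to 69948190), was read at 142, 273 and 316 CPM in ambient BMCtr and at 361, 234 and 293 CPM in ambient BMKO. Cold libraries gave 256, 259 and 293 CPM in BMCtr and 430, 357 and 391 CPM in BMKO. The ambient groups overlapped, whereas in the cold every BMKO library lay above every BMCtr library, with a log2 fold change of 0.54 (SE 0.25, adjusted p = 0.118), under 1.5-fold. Slc2a4 is also abundant in skeletal muscle. With the muscle markers as a covariate the cold genotype difference was 0.31 (adjusted p = 0.374), and with the lymphocyte markers 0.05 (adjusted p = 0.958). With the adipocyte markers as a covariate the log2 fold changes of Slc2a4 were −0.37 and −0.07 between genotypes in ambient and in cold libraries, and −0.77 and −0.47 between temperatures in BMCtr and BMKO.

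The adipocyte markers moved with several members. Across the 12 libraries Insr and Akt2 were higher, and Irs1 and Igf1r lower, where the summed adipocyte markers were higher. With the mean of these markers as a covariate the log2 fold change of Insr between genotypes was 0.26 (adjusted p = 0.366) at ambient temperature and 0.25 (adjusted p = 0.183) in the cold. That of Akt2 was 0.25 (adjusted p = 0.316) and 0.31 (adjusted p = 0.0961). Between temperatures Insr came to −0.01 in BMCtr and −0.02 in BMKO, while Igf1r in BMKO came to −0.59 (adjusted p = 0.0307), past the 1.5-fold limit. The covariate is itself tied to the groups, since its ranges do not overlap between any of the groups compared.

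**Figure D3:**
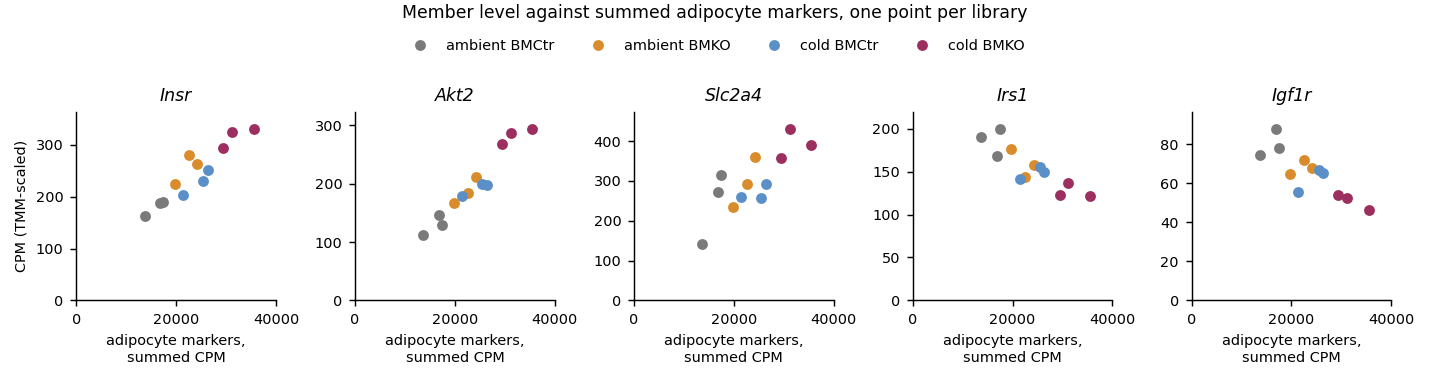
CPM of 5 members (y axes) against the summed CPM of 8 adipocyte markers (x axes), with 1 point per library coloured by group. Ambient BMCtr lies at the left (13691 to 17466 CPM of markers) and cold BMKO at the right (29425 to 35536), with Insr and Akt2 higher and Igf1r and Irs1 lower on the right.

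The profiles over the 12 libraries were compared by Pearson dissimilarity (1 minus the correlation of log2 CPM), as a description, since the libraries share the group structure and the marker levels above. Insr, Akt2 and Igf1 were alike (dissimilarity 0.06 for Insr with Akt2 and 0.09 for Insr with Igf1), and so were Irs1 and Igf1r (0.19). Akt2 and Irs1 ran opposite to each other, with a dissimilarity of 1.91. Of all tested genes, Osbpl1a (0.0105) and Inca1 (0.0138) were closest to Insr, and Mccc2 (0.0104), a subunit of the leucine-degrading methylcrotonyl-CoA carboxylase, and S100a1 (0.0156) were closest to Akt2. Plod2 (0.0393), a collagen lysyl hydroxylase, was closest to Irs1, and Tbc1d16 (0.0399) to Igf1r. Bcat2 (0.0333), the mitochondrial branched-chain aminotransferase, was closest to Pik3r1, and Tmem120b (0.0331) to Slc2a4. Mpst (0.0335) was closest to Igf1, Sema7a (0.0855) to Foxo1, Gm5460 (0.0765) to Igfbp3 and 1700018L02Rik (0.0927) to Irs2, the member with the least similar neighbour.

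Because a ratio of genes within a library does not depend on how libraries are scaled, 4 ratios of FPKM were formed, all chosen after the levels had been seen. Insr to Igf1r was 2.99 ± 0.195 (mean ± SD, n = 3) in ambient BMCtr, 4.97 ± 0.349 in ambient BMKO, 4.85 ± 0.255 in cold BMCtr and 8.26 ± 1.11 in cold BMKO. Between geometric means it was 1.62 to 1.69 times higher in BMKO than in BMCtr and in cold than in ambient libraries, with no overlap in any of the 4 comparisons. Akt2 to Akt1 was 0.494 ± 0.0667, 0.737 ± 0.146, 0.845 ± 0.0764 and 1.27 ± 0.0135 in the same order, so that Akt2 exceeded Akt1 only in cold BMKO. Irs2 to Irs1 was 0.575 ± 0.130, 0.562 ± 0.158 and 0.622 ± 0.0376 in the first 3 groups and 1.03 ± 0.142 in cold BMKO, which overlapped none of the others. The mean of Igf1 to Igfbp3 was highest in cold BMCtr, whose libraries overlapped those of ambient BMKO, at 1.76 ± 0.129, against 1.01 ± 0.208, 1.14 ± 0.528 and 1.12 ± 0.336 in ambient BMCtr, ambient BMKO and cold BMKO. With 3 against 3 libraries the exact two-sided permutation test cannot give a p under 0.1, which the 12 comparisons without overlap out of 16 reached (adjusted p = 0.133). Among these, Akt2 to Akt1 between genotypes at ambient temperature all but touched. The highest BMCtr ratio was 0.5696 and the lowest BMKO ratio 0.5697, too close to read as a separation.

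**Figure D4:**
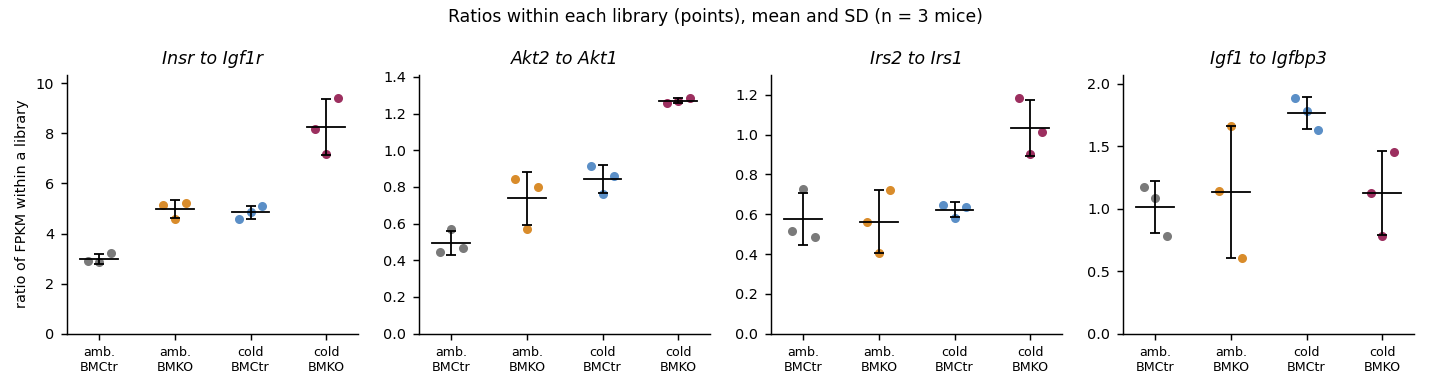
Ratio of FPKM within each library (y axis, starting at 0) by group (x axis) for 4 pairs of genes, with 1 point per library and the mean and SD of 3 mice as black bars. The Insr to Igf1r ratio is near 3 in ambient BMCtr (2.99) and at 8.26 in cold BMKO.

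The other genes of the pathway were taken from 7 lists with 119 genes, of which 115 were tested (Ins1, Ins2, Igfbp1 and Irs4 were too low), and 1 gene stood in 2 lists. Between genotypes 7 rose and 4 fell at ambient temperature, where 3.88% and 4.75% of all tested genes did, and 14 rose and 16 fell in the cold, against 9.67% and 13.1%. Between temperatures 7 rose and 13 fell in BMCtr, against 3.48% and 11.3%, and 8 rose and 14 fell in BMKO, against 6.41% and 12.4%. The median log2 fold change of the 115 genes was 0.03, 0.05, 0.04 and 0.00 in these comparisons, close to that of all genes. None passed for the difference between the genotype effects by edgeR, whereas 3 did by DESeq2. All 12 lymphocyte markers fell between genotypes in the cold, and with them as a covariate 13 pathway genes passed there in place of 30. The shares of all tested genes that passed by DESeq2 or with this covariate are not given here. Whether the drop is particular to pathway genes was therefore not tested. The summed lymphocyte markers did not overlap between genotypes in the cold, so this covariate is itself tied to genotype. Whether lymphocytes account for the calls of members or pathway genes lost with it was not tested.

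**Figure D5:**
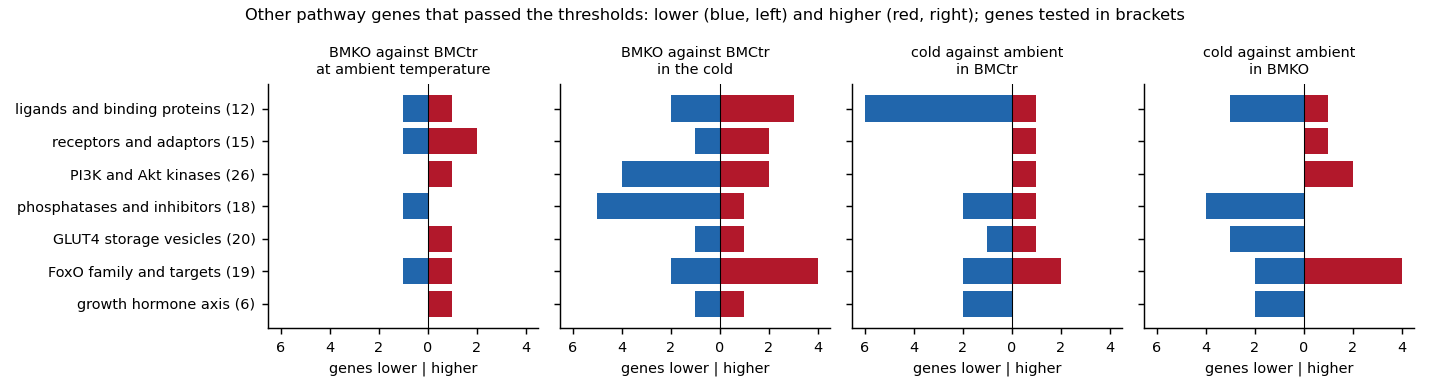
Number of genes of each of 7 pathway lists (rows, genes tested in brackets) that fell (blue, left of 0) or rose (red, right of 0) in each of 4 comparisons. Between genotypes in the cold 5 of 18 phosphatases and inhibitors fell and 1 rose, and 4 of 19 FoxO family and target genes rose and 2 fell. Of all tested genes 13.1% fell and 9.67% rose there, and all 12 lymphocyte markers fell.

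Among 12 ligands and binding proteins, 1 rose and 1 fell with genotype at ambient temperature, and 3 rose and 2 fell in the cold. Stc2, a stanniocalcin that inhibits the protease Pappa, rose at ambient temperature from 38.7, 83.9 and 85.7 CPM in BMCtr to 165, 166 and 126 CPM in BMKO (log2 fold change 1.13, adjusted p = 0.0598). It fell with cold in both genotypes, by 1.75 on the log2 scale in BMCtr (adjusted p = 0.00273) and by 2.74 in BMKO (adjusted p = 0.000165). The ambient rise of Stc2 did not pass with the adipocyte markers as a covariate (0.57, adjusted p = 0.455). Pappa, which frees IGFs by cleaving their binding proteins, fell with cold by 1.68 (adjusted p = 0.00804) and 0.85 (adjusted p = 0.0971). Its paralog Pappa2 rose with genotype in the cold (1.81, adjusted p = 0.0183) from at most 2.40 CPM in BMCtr to 2.86, 6.43 and 5.66 CPM in BMKO, and did not pass with the lymphocyte markers as a covariate (1.53, adjusted p = 0.366).

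Of 15 receptors and adaptors, Irs3 and Sh2b2 rose and Insrr fell with genotype at both temperatures. Irs3, an insulin receptor substrate of rodent adipocytes, was read at 19.8, 25.5 and 30.3 CPM in ambient BMCtr and at 74.3, 54.8 and 65.0 CPM in ambient BMKO. After cold the values were 25.2, 26.3 and 25.7 CPM in BMCtr and 58.5, 63.7 and 62.3 CPM in BMKO, so BMKO libraries lay above all BMCtr libraries whatever the temperature. The log2 fold changes were 1.36 (SE 0.15, adjusted p = 0.000948) and 1.26 (SE 0.15, adjusted p = 0.00056), and 0.99 (adjusted p = 0.0133) and 0.91 (adjusted p = 0.00519) with the adipocyte markers as a covariate. Sh2b2 (APS), which binds the activated insulin receptor, rose by 0.96 (adjusted p = 0.0792) and 0.88 (adjusted p = 0.0288), and neither passed with the adipocyte markers as a covariate (0.38 and 0.36). At ambient temperature it did not pass without ambient BMKO replicate 1 (0.68, adjusted p = 0.291). Insrr, the insulin receptor-related receptor, fell by 1.89 (adjusted p = 0.204) and 2.45 (adjusted p = 0.0363), from at most 7.09 CPM, and in the cold came to −0.36 (adjusted p = 0.878) with the lymphocyte markers as a covariate. Its ambient call was lost in 7 of the 12 fits that left out 1 library (adjusted p 0.253 to 0.48). Ambient Insrr was at 6.01, 3.57 and 1.78 CPM in BMCtr and at 0.102, 0.458 and 2.45 CPM in BMKO. In the same order the summed lymphocyte markers were at 1390, 532 and 26.2 CPM and at 24.5, 42.7 and 378 CPM. Whether lymphocytes account for the ambient fall of Insrr was not tested. Grb14, an inhibitor of the insulin receptor kinase, rose with cold in both genotypes, by 1.97 (adjusted p = 0.0015) in BMCtr and 2.39 (adjusted p = 0.000384) in BMKO. Its libraries ran from 5.87 to 13.3 CPM at ambient temperature and from 38.2 to 70.4 CPM in the cold.

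Of 26 PI 3-kinase, Akt and downstream genes, Pik3cb, a catalytic subunit, rose with genotype at ambient temperature (0.63, adjusted p = 0.0204). In the cold 2 rose and 4 fell: Deptor, an mTOR inhibitor, rose by 0.64 (adjusted p = 0.0174) and Gys1, glycogen synthase, by 0.62 (adjusted p = 0.018). Pik3cd, the catalytic subunit of leukocytes, fell by 1.88 (adjusted p = 0.0171) in the comparison in which all 12 lymphocyte markers fell, and came to −0.19 (adjusted p = 0.862) with those markers as a covariate. Pde3b, the phosphodiesterase through which insulin restrains lipolysis, rose with cold in BMCtr by 0.84 (adjusted p = 0.00447). In BMKO Pde3b came to 0.57 (adjusted p = 0.0243), without overlap and under 1.5-fold. Pik3cb came to 0.54 (adjusted p = 0.0103) between genotypes in the cold, also without overlap and under 1.5-fold. With the adipocyte markers as a covariate the ambient rise of Pik3cb (0.40), the rise of Deptor (0.38) and that of Pde3b in BMCtr (0.42) did not pass. Nor did the ambient rise of Pik3cb without ambient BMKO replicate 1 (0.52). The rise of Deptor did not pass without cold BMCtr replicate 2 (0.55) or cold BMKO replicate 1 (0.53).

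Of 18 phosphatases and inhibitors, Enpp1, a membrane protein that binds and inhibits the insulin receptor, fell in all 4 comparisons. It was read at 27.4, 26.3 and 44.4 CPM in ambient BMCtr, at 11.6, 13.9 and 16.8 in ambient BMKO, at 11.02, 15.6 and 12.4 in cold BMCtr and at 3.68, 3.33 and 2.94 in cold BMKO. The log2 fold changes of Enpp1 were −1.21 (adjusted p = 0.0162) and −1.97 (adjusted p = 0.000687) between genotypes in ambient and in cold libraries, and −1.33 (adjusted p = 0.00262) and −2.09 (adjusted p = 0.00019) between temperatures in BMCtr and BMKO. Ptprf (LAR), a receptor phosphatase, fell with cold by 1.86 in BMCtr (adjusted p = 0.000375) and by 1.88 in BMKO (adjusted p = 0.00029), in the comparisons in which all 12 mammary epithelium markers fell. Epithelia also make Ptprf, and the part of these cells was not tested. Ptpn1, which dephosphorylates the insulin receptor, fell with cold in BMKO by 0.67 (adjusted p = 0.0248). It came to −0.44 without ambient BMKO replicate 2 and to 0.0021 (adjusted p = 0.997) with the adipocyte markers as a covariate.

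Of 20 genes of GLUT4 storage vesicles and their traffic, Sort1, sortilin, rose with genotype at ambient temperature (0.81, adjusted p = 0.0467) and in the cold (0.74, adjusted p = 0.0176). With the adipocyte markers as a covariate these were 0.25 (adjusted p = 0.431) and 0.24 (adjusted p = 0.253). Sort1 was at 337, 507 and 586 CPM in ambient BMCtr and at 939, 675 and 894 CPM in ambient BMKO. Tbc1d1, a Rab GTPase-activating protein that is an Akt substrate, fell in cold BMKO against cold BMCtr by 1.03 (adjusted p = 0.00158) and against ambient BMKO by 0.84 (adjusted p = 0.00293). Slc2a1 (GLUT1), the transporter of basal glucose uptake, fell with cold in BMKO by 1.03 (adjusted p = 0.00339). With the adipocyte markers as a covariate these cold effects in BMKO were −0.30 (adjusted p = 0.212) for Tbc1d1 and −0.47 (adjusted p = 0.286) for Slc2a1.

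Of 19 FoxO family members and targets, 1 rose and 1 fell with genotype at ambient temperature, and 4 rose and 2 fell in the cold. Pdk4, which restrains pyruvate oxidation, rose in the cold by 2.11 (SE 0.51, adjusted p = 0.013), from 71.8, 56.4 and 124 CPM in BMCtr to 658, 152 and 274 CPM in BMKO. Without cold BMKO replicate 1, the high library, it was 1.35 (adjusted p = 0.0439). Sod2, the mitochondrial superoxide dismutase, rose by 0.81 (adjusted p = 0.0102) in the same comparison and Cat, catalase, rose at ambient temperature by 0.61 (adjusted p = 0.0364). Sesn3 fell by 0.91 (adjusted p = 0.00273) and Bcl2l11 (Bim) by 0.82 (adjusted p = 0.0176) in the cold, so targets went both ways. All 12 lymphocyte markers fell in that comparison too, and their part in the fall of Bcl2l11 was not tested. Sod2 (0.55) and Sesn3 (−0.57) did not pass with the lymphocyte markers as a covariate, and Cat did not without ambient BMCtr replicate 1 (0.52) or ambient BMKO replicate 1 (0.54), or with the adipocyte markers (0.38). Pdk4 is also abundant in muscle, and its difference in the cold was 2.20 (adjusted p = 0.0214) with the muscle markers as a covariate.

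Of 6 genes of the growth hormone axis, which drives Igf1, the receptor Ghr rose with genotype at both temperatures, by 0.86 (adjusted p = 0.0354) and 1.01 (adjusted p = 0.00528). Ghr was read at 626, 828 and 1007 CPM in ambient BMCtr and at 1541, 1439 and 1478 CPM in ambient BMKO. With the adipocyte markers as a covariate these differences of Ghr were 0.38 (adjusted p = 0.326) and 0.56 (adjusted p = 0.0633), under the 1.5-fold limit. Socs2, a feedback inhibitor of that receptor, fell with genotype in the cold by 0.88 (adjusted p = 0.0507) and with cold by 0.98 (adjusted p = 0.0589) in BMCtr and 1.30 (adjusted p = 0.0138) in BMKO. With the adipocyte markers as a covariate these values of Socs2 were −0.31 (adjusted p = 0.572), 0.020 (adjusted p = 0.982) and −0.38 (adjusted p = 0.629), and in the cold genotype comparison it did not pass without cold BMKO replicate 2 (−0.76, adjusted p = 0.14). Igf1 itself, as given above, differed by less than 1.5-fold in each of these comparisons.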

How the data were processed

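RNA was extracted with Trizol and columns, made into libraries with the Kapa mRNA HyperPrep kit and sequenced as single reads. The authors aligned reads to mm10 with STAR and counted uniquely mapped reads over GENCODE genes with HTSeq to make the deposited count table; the submitters' processing notes also name DESeq2, limma and edgeR. Tool versions, GENCODE release and strand setting: not given in the sources used here. The deposited log2 values are log2(FPKM + 0.1) as computed by the authors. Columns of the authors' own comparisons, where present, were not used.

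Here the genes with FPKM above 0.1 in 50% or more of the 12 libraries entered, counts were scaled by TMM and all 4 groups were fitted with edgeR 4.0.16 in R 4.3.3 (glmQLFit, glmQLFTest), with p-values adjusted over 15413 genes by Benjamini and Hochberg. CPM carry the TMM factors, with a prior count of 2 on the log2 scale. Mice are the replicates. No libraries of a group were duplicates by a chi-square over genes. The fit was tested on simulated counts with known changes in ambient BMKO. The rule recovered 16.42% of genes changed 1.5-fold, 62.69% of those changed 2-fold and 95.45% of those changed 4-fold. It made 19 false calls among 15213 unchanged genes. A true change near 1.5-fold would therefore often be missed by this rule.

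Named genes were all members, per list and comparison the 3 that passed with the smallest p (2 if none passed), the nearest genes by Pearson dissimilarity, and Arntl and Nr1d1; of those named by the rule, the text gives a part. Members and lists were chosen with earlier results of these data known. Alternatives were DESeq2 1.42.0, RLE factors, library size alone, no filter or filterByExpr, only the 2 compared groups, limma 3.58.1 on the log2 FPKM values, a replicate block, each library left out, an adjusted p under 0.05 with no fold minimum, and marker covariates. Counts carry no molecular identifiers, and reads shared by overlapping genes could be lost in counting.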

Additional observations from a re-analysis of the deposited data

How the results depend on the processing

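Counts of members that passed were 0, 1, 1, 2 and 0 in the comparisons of genotype at ambient temperature, genotype in the cold, cold in BMCtr, cold in BMKO, and the difference between the genotype effects. With an adjusted p under 0.05 and no fold minimum they were 2, 4, 4, 4 and 0. Library size alone gave 0 in each comparison, and it moved the median log2 fold change of all genes to −0.13, −0.17, −0.06, −0.17 and −0.07. DESeq2 gave 2 for cold in BMCtr and 1 (Irs2) for the difference between effects. RLE factors, no filter, and the lymphocyte or adipocyte covariate each gave 2 for cold in BMCtr. With the adipocyte covariate these 2 did not include Pik3r1, the member that had passed without it. For cold in BMKO no filter, only the 2 compared groups and limma gave 0, and the muscle, lymphocyte or adipocyte covariate 1. With the adipocyte covariate that 1 was Igf1r, which fell, and neither Irs2 nor Akt2 passed. For genotype in the cold limma and the adipocyte covariate gave 0. The adipocyte covariate gave 1 for the difference between effects. Leaving out each library gave 0 to 3, 0 to 2, 0 to 3, 0 to 2 and 0 to 1 members. The other pathway genes, 11, 30, 20, 22 and 0 in the same order, came to 6, 47, 15, 36 and 0 with the adjusted p alone, to 7 at ambient temperature in only the 2 compared groups, to 13 and 18 for genotype in the cold with the lymphocyte and adipocyte covariates, and to 3, 2 and 8 for the difference between effects by DESeq2 and with the muscle and adipocyte covariates. Leaving out each library gave 5 to 19, 26 to 36, 15 to 25, 19 to 25 and 0 to 20. The shares of all genes that passed under these settings are not given here, so the counts cannot be set against them. The cause of these shifts was not tested.

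Replicate numbers did not pair the samples: of 12 same-numbered pairs 4 had deviations correlated above 0.1 (range −0.699 to 0.447). With the replicate block 1 member (Akt2) passed for cold in BMKO, and at ambient temperature Foxo1 turned from 0.02 to −0.017.

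The directions that turned, as log2 fold changes, belong to differences that had not passed, save those of Socs2 and Ptpn1. For genotype at ambient temperature Foxo1 turned with library size alone (−0.10), only the 2 compared groups (−0.026), limma (−0.093), the muscle covariate (−0.0074) and the adipocyte covariate (−0.063). The adipocyte covariate also turned Slc2a4 (−0.37), Pik3r1 (−0.0018) and Igfbp3 (−0.31). In the cold it turned Slc2a4 (−0.074), Pik3r1 (−0.28) and Igf1 (−0.063), while Foxo1 turned with the muscle (0.020) and lymphocyte (0.25) covariates, and Pik3r1 with library size alone (−0.19), limma (−0.15), the muscle (−0.043) and the lymphocyte covariate (−0.024). Between temperatures the adipocyte covariate turned Insr (−0.012), Slc2a4 (−0.77), Igf1 (−0.14) and Socs2 (0.020) in BMCtr, and Insr (−0.017), Slc2a4 (−0.47), Pik3r1 (−0.15), Igf1 (−0.22), Igfbp3 (−0.83) and Ptpn1 (0.0021) in BMKO, where library size alone turned Igfbp3 (−0.12). For the difference between effects Slc2a4 turned with the muscle (−0.062) and lymphocyte (−0.089) covariates, Akt2 with library size alone (−0.072), no filter (−0.014), limma (−0.087), the muscle (−0.042) and the lymphocyte covariate (−0.023), and Foxo1 with the muscle (0.028) and lymphocyte (0.13) covariates.

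Leaving out each library turned Slc2a4 (−0.0040 to 0.51), Foxo1 (−0.22 to 0.17) and Igfbp3 (−0.10 to 0.74) for genotype at ambient temperature, and Foxo1 (−0.20 to 0.061) and Pik3r1 (−0.11 to 0.15) in the cold. It turned Slc2a4 for cold in BMCtr (−0.13 to 0.39) and Igfbp3 for cold in BMKO (−0.31 to 0.53). For the difference between effects it turned Insr (−0.17 to 0.036), Irs1 (−0.10 to 0.029), Akt2 (−0.13 to 0.12), Foxo1 (−0.24 to 0.12), Igf1r (−0.18 to 0.0013) and Socs2 (−0.59 to 0.10). The ratios, formed after seeing the data, were recomputed without each library. No member had fewer than 614 counts in a library.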
